A study of Mus musculus with 5 samples.

Results

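The genes of 8 CC chemokines, Ccl2, Ccl3, Ccl4, Ccl5, Ccl7, Ccl8, Ccl11 and Ccl20, were followed through single-cell RNA profiles of mouse dorsal skin. They were taken by name from the 28001 features of 4 unsorted libraries, a rule that uses no measured value, though it was made with earlier results of these data known. In the mutant group, 2 libraries came from female Lepr-Cre;mTmG;Smo+/- mice at postnatal day 46. In the control group, 2 libraries came from female mice of the same age, written Lepr-Cre;mTmG in the sample titles and Lepr-Cre;mTmG;Smo in the protocol text. Lepr-Cre expresses Cre recombinase from the leptin receptor locus, and mTmG is a reporter that turns from tomato to GFP where Cre has acted; both groups carry them. Smo encodes Smoothened, the signal transducer of the Hedgehog pathway, and the labels do not say how the gene was changed. Both libraries of a genotype are labelled as technical replicates, so throughout n = 2 counts libraries and not animals, and p-values measure the spread between preparations.

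CC chemokines are small secreted proteins that draw leukocytes along a gradient by binding G protein-coupled CC receptors. In mice, Ccl2 and Ccl7 act on Ccr2 and recruit monocytes, Ccl8 acts on Ccr8, and Ccl11, also called eotaxin, acts on Ccr3 and recruits eosinophils. Ccl3, Ccl4 and Ccl5 are made mostly by myeloid cells and by cytotoxic lymphocytes. Ccl20 is the ligand of Ccr6, is made by epithelia, and draws lymphocytes and dendritic cell precursors that carry Ccr6.

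Of the 8 genes, 7 lie on chromosome 11 in the GRCm38 assembly (GENCODE M21 annotation). Ccl2, at chr11:82035571-82037453, is followed on the plus strand by Ccl7, Ccl11 and Ccl8 within 81.2 kb. Ccl5, at chr11:83525778-83530518 on the minus strand, is followed by Ccl3 and Ccl4 within 139 kb. Ccl20 stands alone at chr1:83116766-83119167, on the plus strand. RefSeq promoters (GRCm38.p6, 250 bases before and 50 after the start) were at hand for Ccl8, Ccl3 and Ccl20, whose highest or second highest levels lay in fibroblasts, in myeloid cells and in keratinocytes, so that they show 1 promoter for each of 3 kinds of source. Capitals mark the matches to the motifs searched on both strands, which were NF-kB by name, the AP-1 motif TGANTCA and TATAAA.
Ccl8, chr11:82114935-82115234, plus strand: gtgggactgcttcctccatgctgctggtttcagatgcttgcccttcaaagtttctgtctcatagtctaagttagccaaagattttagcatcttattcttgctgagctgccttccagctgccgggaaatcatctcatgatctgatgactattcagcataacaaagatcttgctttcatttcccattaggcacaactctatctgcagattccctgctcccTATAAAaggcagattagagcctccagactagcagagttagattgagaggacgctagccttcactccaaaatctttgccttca
Ccl3, chr11:83649329-83649628, minus strand: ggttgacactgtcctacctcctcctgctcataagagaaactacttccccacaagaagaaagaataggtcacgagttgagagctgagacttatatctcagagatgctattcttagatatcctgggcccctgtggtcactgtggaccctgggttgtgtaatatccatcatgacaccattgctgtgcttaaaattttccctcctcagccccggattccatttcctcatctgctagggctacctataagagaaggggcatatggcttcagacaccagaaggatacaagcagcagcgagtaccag
Ccl20, chr1:83116516-83116815, plus strand: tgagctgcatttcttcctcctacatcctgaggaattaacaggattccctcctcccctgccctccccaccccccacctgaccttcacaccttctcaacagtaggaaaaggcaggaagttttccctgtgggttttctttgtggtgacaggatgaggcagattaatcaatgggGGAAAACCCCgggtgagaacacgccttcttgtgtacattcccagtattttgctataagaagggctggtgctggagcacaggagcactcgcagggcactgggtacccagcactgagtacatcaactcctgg
The TATAAA of Ccl8 covers bases 219 to 224 of the printed run, and the NF-kB match of Ccl20, on its minus strand, covers bases 171 to 180. Among 32851 RefSeq promoters of this length, 13.6% held TATAAA, 8.46% the NF-kB motif and 7.81% the AP-1 motif. A match is a description of the letters and not of a site in use.

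The unsorted libraries held 11563 and 11816 barcodes in the mutant and 10748 and 11072 in the control, with 147245343 to 171197845 unique molecular identifiers (UMIs, each standing for 1 captured mRNA molecule) per library. After filtering, 8384 and 8673 mutant cells and 8102 and 8241 control cells were kept. Their clusters were named by markers into 15 groups with at least 20 cells in every library, each called "-like" in the plots because the names were rebuilt here; 5 clusters stayed unnamed. Pairs of libraries shared between 1.09% and 1.73% of their barcode sequences. Cell shares differed between genotypes: fibroblasts made up 18.0 ± 0.124% of mutant cells and 11.1 ± 0.610% of control cells, and dermal papilla cells, the mesenchyme of the hair follicle base, 15.1 ± 0.544% of mutant cells and 6.11 ± 0.229% of control cells (SD, n = 2 each). As a check of the genotype, the Hedgehog targets Hhip, Ptch1 and Gli1 rose in mutant papilla cells, by 3.55, 2.33 and 1.94 log2 units, while Smo itself was not called there. In every count below, a gene is called when edgeR's quasi-likelihood test gave an adjusted p under 0.05 over all genes tested in that comparison and a log2 fold change of at least 1 in size; "rose" and "fell" are used of called genes. Levels are CPM, the counts of a gene scaled to 1000000 UMIs of a cell group in a library. In a sum over cells, fewer cells that express a gene and less RNA per cell cannot be told apart.

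Each chemokine had its highest level in a limited set of skin cells. Ccl2 was highest in pericytes or smooth muscle cells, at 4248 ± 1011 CPM (SD over 4 libraries), and in fibroblasts, at 3783 ± 250.6 CPM, and the libraries of these neighbours overlapped. Ccl7 led in fibroblasts, at 939 ± 161 CPM, followed by mast cells, at 743 ± 508 CPM, again with overlap. Ccl11 led in the pericyte or smooth muscle group, at 913 ± 179 CPM, with no overlap with the next group, fibroblasts, at 147 ± 17.5 CPM. Ccl8 was at 56.2 ± 16.6 CPM in fibroblasts and reached single-library values far above that in macrophages. Ccl20 was led by basal keratinocytes, at 824 ± 86.05 CPM, and suprabasal keratinocytes, at 726 ± 228 CPM, which overlapped. Ccl5 was highest in the T, NK or innate lymphoid group, at 961 ± 279 CPM, with no overlap with the next, macrophages, at 73.6 ± 82.97 CPM. Ccl3 and Ccl4 were both led by macrophages and then Langerhans or dendritic cells.

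**Figure D1:**
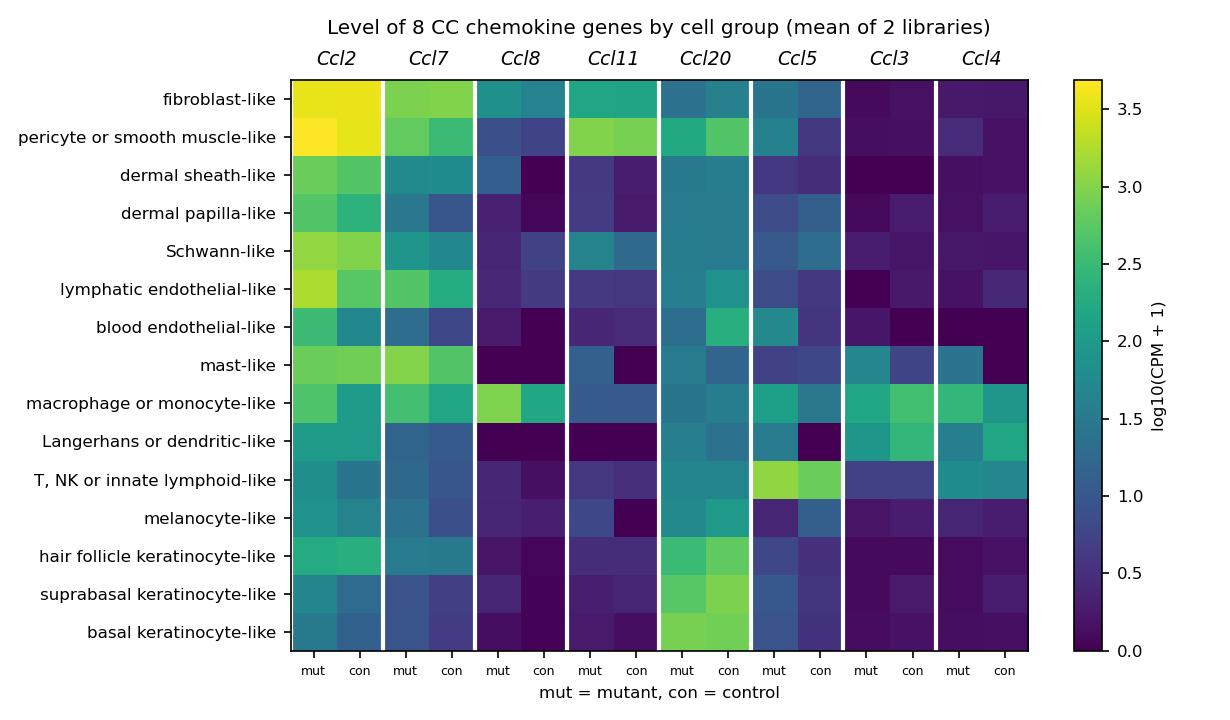
Level of the 8 chemokine genes in 15 cell groups, as log10(CPM + 1) of the mean over the 2 mutant or the 2 control libraries, with the mutant column left of the control column for each gene. Ccl2 and Ccl7 spread over fibroblasts, pericytes or smooth muscle cells, mast and lymphatic cells, while Ccl20 stands out in keratinocytes and Ccl5 in lymphoid cells.

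Counted as shares of all UMIs of a gene, the sources were more uneven than the levels, because cell groups differ in size. Fibroblasts held 72.3 ± 1.10% of the Ccl2 UMIs of mutant libraries and 70.6 ± 0.202% of those of control libraries. For Ccl7 the fibroblast share was 80.9 ± 2.89% in the mutant and 81.3 ± 2.76% in the control. These shares were nearly equal although fibroblasts were more frequent in the mutant. Ccl11 came from fibroblasts, with 62.4 ± 0.0872% of its UMIs in the mutant and 54.1 ± 2.17% in the control, and from pericytes or smooth muscle cells, with 31.1 ± 0.193% in the mutant and 38.8 ± 0.134% in the control. The groups did not overlap for either share of Ccl11. For Ccl20, basal keratinocytes held 47.4 ± 0.122% in the mutant and 40.2 ± 0.953% in the control, and suprabasal keratinocytes 17.4 ± 0.651% in the mutant and 27.2 ± 1.28% in the control. With doublets kept, the basal share was 17.3% in the mutant and 14.7% in the control, and unnamed clusters held the largest part. Among those, a cluster of 1242 cells led by Csf2, Tslp and Ch25h stayed unnamed for having under 3 markers of a list. The same 3 genes were among those that led a basal keratinocyte cluster of the main setting. T, NK or innate lymphoid cells held 87.4 ± 0.998% of Ccl5 UMIs in the mutant and 90.1 ± 0.591% in the control; under a cell by cell marker gate the share was 60.5% in the mutant and 59.7% in the control. With 2 libraries a genotype, the smallest two-sided p of an exact permutation test is 0.3333, so none of these share differences could pass 0.05.

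A part of the Ccl20, Ccl3 and Ccl4 UMIs lay in cells that the clusters left unnamed. That was 28.6 ± 1.396% of Ccl20 in the mutant and 23.5 ± 0.213% in the control, and 66.4 ± 6.76% of Ccl3 in the mutant and 66.5 ± 0.874% in the control. Most of the unnamed Ccl3 lay in a cluster that carried the markers of Langerhans cells, the dendritic cells of the epidermis, together with those of keratinocytes, at a median of 53830 UMIs per cell. When cells were instead gated 1 by 1 on marker UMIs, the Langerhans or dendritic gate held 75.9 ± 9.05% of Ccl3 UMIs in the mutant and 78.6 ± 0.689% in the control. The same gate held 31.8 ± 9.79% of Ccl4 in the mutant and 44.2 ± 3.14% in the control. By cluster, T, NK or innate lymphoid cells held the largest share of Ccl4, 53.7 ± 3.16% in the mutant and 45.5 ± 2.35% in the control. Their own gate held 44.3 ± 1.59% of Ccl4 in the mutant and 31.8 ± 3.67% in the control. Under the gate the fibroblast share of Ccl2 was 61.3 ± 0.529% in the mutant and 62.8 ± 1.52% in the control.

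**Figure D2:**
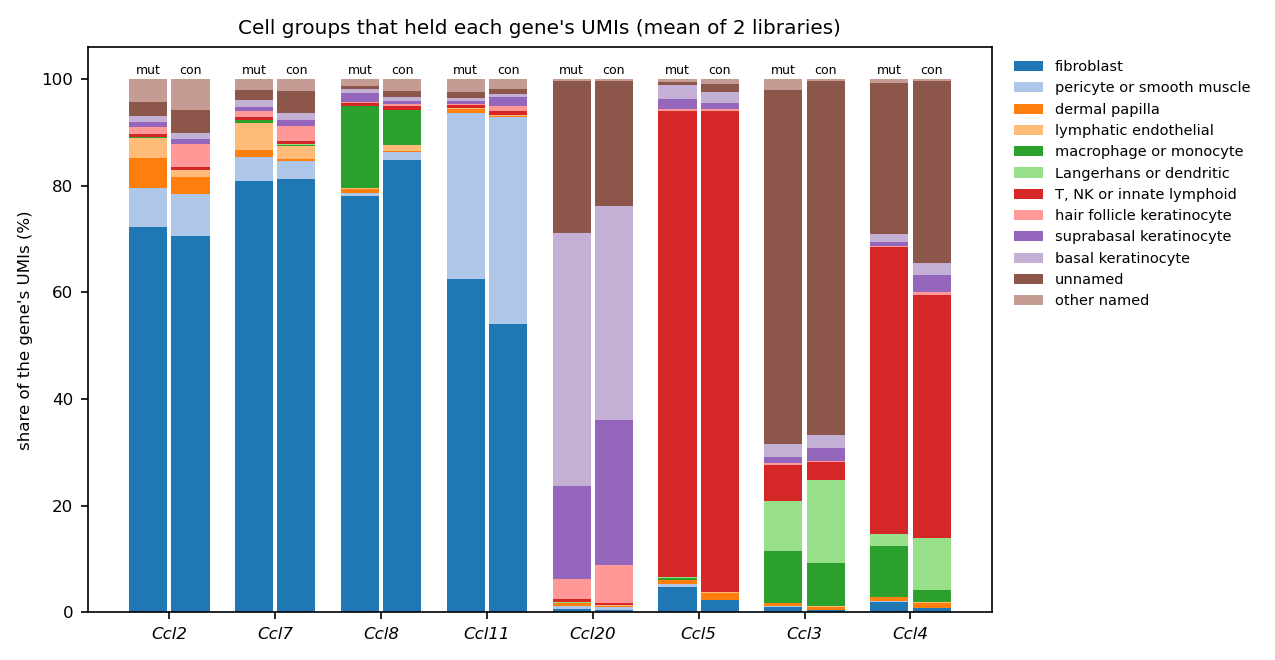
Percent of each gene's UMIs held by each cell group, as stacked bars of the mean of 2 libraries, mutant bar left of control bar for each gene. Fibroblasts hold most of Ccl2, Ccl7, Ccl8 and Ccl11, keratinocytes most of Ccl20 and lymphoid cells most of Ccl5, in both genotypes.

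Over all member and cell group pairs that passed the filter on low counts, 71 in number, 16 rose in the mutant, 2 fell and the rest were not called; over all genes, 1.79% of gene and group pairs were called. No change of the monocyte chemoattractants Ccl2 and Ccl7 was called in their chief sources. In fibroblasts, Ccl2 was at 3999.6 and 3479.7 CPM in the mutant libraries, against 3977 and 3675 CPM in the control libraries, so the groups overlapped (log2 fold change −0.00 ± 0.06 SE, adjusted p = 0.98). Ccl7 in fibroblasts was at 996 and 839.6 CPM in the mutant, against 1139 and 782 CPM in the control, also overlapping (−0.04 ± 0.14, adjusted p = 0.90). Of 7 members tested in fibroblasts none was called by edgeR or by DESeq2, 3 had an unadjusted p under 0.05, and 2.26% of all genes tested there were called.

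Pericytes or smooth muscle cells were a contractile group led by Myh11, Rgs5 and Des, in which smooth muscle genes and a pericyte marker stood together. The level of Ccl2 there was 5360.3 and 4399 CPM in the mutant, against 4324 and 2907 CPM in the control, higher in both mutant libraries but not called (0.44 ± 0.16, adjusted p = 0.26). Ccl11 in them was at 1124 and 814 CPM in the mutant, against 992 and 724 CPM in the control (0.19 ± 0.17, adjusted p = 0.69). The member that rose in this group was Ccl5, the 1 called of 6 tested, where 0.762% of all genes were called. It had 72 and 39 UMIs in the mutant, against 1 and 6 UMIs in the control (3.62 ± 0.54, adjusted p = 0.022). The call was lost by DESeq2, without control 1 (3.01) and without control 2 (5.14), and summed T cell markers there were 176 and 148 CPM in the mutant, against 149.8 and 119.8 CPM in the control; their part in it was not tested.

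Of the 4 groups with the highest Ccl2, lymphatic endothelial cells, which line the lymph vessels, were the 1 in which it rose. There Ccl2 was at 1441 and 2029.7 CPM in the mutant, against 576 and 489.8 CPM in the control, with both mutant libraries above both control libraries. It rose by 1.75 ± 0.12 log2 units (adjusted p = 7.2e-07), and the call was kept in all 13 alternative analyses. Ccl7 was at 375 and 641 CPM in the mutant, against 139.6 and 239.8 CPM in the control, and rose by 1.45 ± 0.21 (adjusted p = 0.0011), a call that DESeq2 did not make. So 2 of 3 members tested rose there, where 0.696% of all genes were called, and the third, Ccl20, was under the fold minimum (−0.96 ± 0.24, adjusted p = 0.048). In cells thinned to 2000 UMIs, 36.8% and 33.5% of mutant lymphatic cells had a Ccl2 UMI, against 21.9% and 20.1% of control ones; unthinned, the shares were 52.1% and 44.5% in the mutant, against 27.7% and 27.8% in the control. Basal keratinocytes had the lowest mean Ccl2 level of the groups. After thinning, 6.47% and 6.83% of them had a Ccl2 UMI in the mutant, against 2.58% and 2.32% in the control. Unthinned, these shares were 47.4% and 40.8% in the mutant, against 23.7% and 21.6% in the control. The source of these UMIs was not tested. The unthinned lymphatic shares are thus close to those of basal cells, whose median depth was 15778.5 to 16943 UMIs per library, against 3243 to 4476.5 UMIs in lymphatic cells. The summed level of 10 fibroblast markers in these cells was lower in the mutant, at 615 and 630 CPM, against 1633 and 929.8 CPM in the control. The genotype effect differed from that in fibroblasts: 2 of 6 members were called in the interaction, Ccl2 (1.75 ± 0.16) and Ccl7 (1.47 ± 0.32), where 0.615% of all genes were called. The Ccl7 difference was lost without mutant 2 (0.95) or control 1 (0.86).

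Dermal papilla cells had lower levels, and 3 of 5 members tested rose, where 5.85% of all genes were called. Among the papilla clusters, 1 was almost wholly mutant, with 420 and 452 mutant cells, against 1 and 2 control cells. The others held both genotypes, 1 with 419 and 364 mutant cells, against 317 and 341 control cells. The other had 460 and 461 mutant cells, against 164 and 174 control cells. Without the almost wholly mutant cluster the 3 rises were 1.44 for Ccl2, 2.06 for Ccl7 and 2.28 for Ccl11. Ccl5, not called with that cluster, was called lower without it (−1.08). Ccl2 was at 559.8 and 449 CPM in the mutant, against 299.7 and 191 CPM in the control, without overlap (1.07 ± 0.14, adjusted p = 4.2e-05). Its fold change was below the minimum without control 2 (0.77) or mutant 1 (0.91) and under the marker gate (0.89). Ccl7 was at 34.6 and 23.0 CPM in the mutant, against 8.32 and 9.25 CPM in the control (1.75 ± 0.20, adjusted p = 8.9e-06; 0.80 under the gate). Ccl11 had 54 and 16 UMIs in the mutant, against 4 and 6 UMIs in the control (2.12 ± 0.61, adjusted p = 0.017; not called with no filter on low counts). Beside these, summed fibroblast markers in papilla cells were 2359 and 2433 CPM in the mutant, against 1069 and 1141 CPM in the control, and their part in the rise was not tested. Against fibroblasts, 3 of 7 members were called in the interaction, where 5.45% of all genes were called: Ccl2 (1.10 ± 0.19) and Ccl7 (1.81 ± 0.34) differed upward, by 0.89 and 0.79 under the gate. Ccl5 differed downward (−1.80 ± 0.58), a call that was lost without mutant 2 (−0.91), control 1 (−1.20) or control 2 (−2.13).

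**Figure D3:**
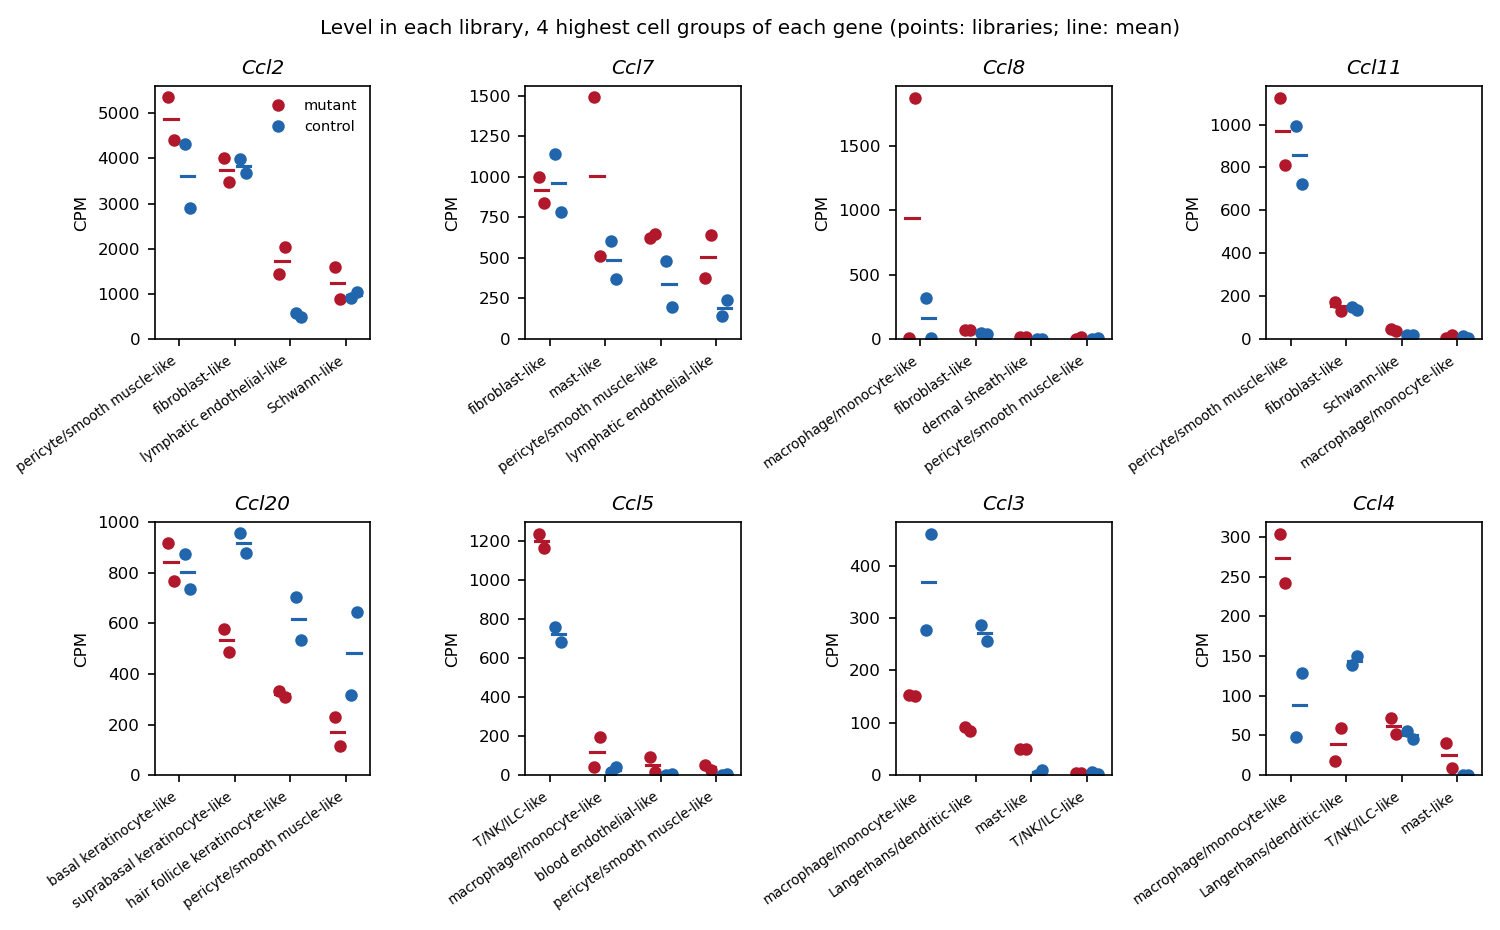
CPM per library on a linear axis for each of the 8 chemokine genes in its 4 highest cell groups; each point is 1 library, lines are means, and mutant points stand left of control points. Mutant points of Ccl2 lie above control points in lymphatic cells and among them in fibroblasts, and mutant points of Ccl20 lie below control points in suprabasal and hair follicle keratinocytes.

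Small amounts of Ccl2 were also counted in cells with low levels. In T, NK or innate lymphoid cells it was at 70.7 and 63.1 CPM in the mutant, against 28.1 and 24.4 CPM in the control, and rose (1.28 ± 0.10, adjusted p = 6.2e-12; 0.98 under the gate), as the 1 called of 7 members where 3.76% of all genes were called. Basal keratinocytes had 32.0 and 27.995 CPM in the mutant, against 15.2 and 10.97 CPM in the control (1.18 ± 0.09, adjusted p = 4.1e-08; 0.96 without control 2). Suprabasal keratinocytes had 63.8 and 32.2 CPM in the mutant, against 13.1 and 23.4 CPM in the control (1.37 ± 0.27, adjusted p = 0.0075). That last call was lost by DESeq2 and without control 1 (1.02), control 2 (1.86) or mutant 1 (0.80), with no filter on low counts (1.35) and with doublets kept (0.79). Summed fibroblast markers were higher in the same mutant groups. In lymphoid cells they were at 511 and 578 CPM in the mutant, against 252 and 264 CPM in the control. In basal cells they were at 204 and 177 CPM in the mutant, against 76.1 and 72.7 CPM in the control. In suprabasal cells they were at 414 and 219.7 CPM in the mutant, against 89.2 and 88.5 CPM in the control. Their part in these results was not tested.

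**Figure D4:**
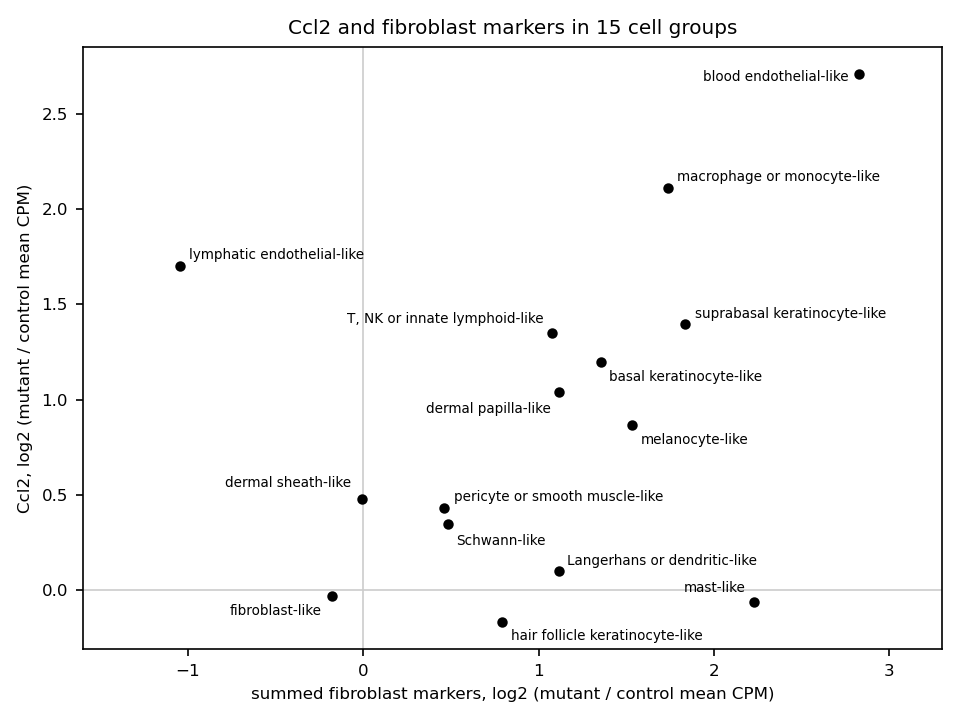
For 15 cell groups, the log2 ratio of mutant to control mean CPM of Ccl2 (vertical) against that of 10 summed fibroblast markers (horizontal); each point is 1 cell group. Most groups lie where both ratios are above 0, lymphatic endothelial cells have a higher Ccl2 with lower fibroblast markers, and fibroblasts lie near 0 on both axes.

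In basal keratinocytes 5 of 8 members rose, where 2.37% of all genes were called, and in suprabasal ones 2 of 6, where 1.80% were. Besides Ccl2, the basal calls were Ccl7 (9.46 and 6.41 CPM in the mutant, against 3.83 and 2.85 CPM in the control; 0.92 without mutant 1), Ccl11, Ccl8 and Ccl5. Ccl11 stayed under 1 CPM in all 4 libraries and was not called without control 2 (0.96) or mutant 1 (1.10). Ccl8 had 11 and 11 UMIs in the mutant, against 5 and 2 UMIs in the control, and was not called without control 2 (1.52), mutant 1 (2.09) or mutant 2 (2.01). Ccl5 was at 12.4 and 2.93 CPM in the mutant, against 1.97 and 2.96 CPM in the control, and its log2 change was 0.22 without mutant 1. DESeq2 called neither Ccl11, Ccl8 nor Ccl5 in basal cells, and under the gate Ccl7 (0.96), Ccl11 (0.66) and Ccl8 (1.19) were not called. In suprabasal cells Ccl5 was at 8.96 and 9.77 CPM in the mutant, against 2.96 and 2.35 CPM in the control (1.80 ± 0.15, adjusted p = 1.9e-05), and was not called without control 2 (1.64) or with doublets kept (0.82). The genotype effect was not called different between the suprabasal and basal groups by edgeR for any of 8 members; 1 had an unadjusted p under 0.05, DESeq2 was not run on interactions, and 0.13% of all genes were called.

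Ccl20 was close between genotypes in its leading source and lower in several other groups of the mutant, suprabasal and hair follicle keratinocytes among them. Outside keratinocytes it was also lower, though not called, in pericytes or smooth muscle cells (−1.49 ± 0.35, adjusted p = 0.087) and fibroblasts (−0.77 ± 0.20, adjusted p = 0.030). Lymphatic cells are given above. It was close in lymphoid cells (0.01 ± 0.09), papilla cells (−0.01 ± 0.12) and Schwann cells (0.08 ± 0.20). In Langerhans or dendritic cells it was 0.62 ± 0.44 (adjusted p = 0.93). Basal keratinocytes had 917 and 769 CPM in the mutant, against 874 and 735 CPM in the control, with overlap (0.04 ± 0.06, adjusted p = 0.70). Suprabasal keratinocytes, the differentiating layers, had 578 and 488 CPM in the mutant, against 959 and 877 CPM in the control, with no overlap (−0.80 ± 0.06, adjusted p = 9.3e-06, under the fold minimum). The direction and the side of the threshold were the same in all 13 alternatives. Hair follicle keratinocytes had 332 and 310.4 CPM in the mutant, against 706 and 533 CPM in the control (−0.98 ± 0.11, adjusted p = 0.0012, also under the minimum). Their clusters differed in direction, given as a description with no test. The log2 change of Ccl20 was −0.97 ± 0.11 in the cluster led by Krt79 and 0.47 ± 0.23 in that led by Lhx2. None of 5 members tested in hair follicle keratinocytes was called by edgeR or DESeq2, 2 had an unadjusted p under 0.05, and 0.571% of all genes were called.

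The difference between the suprabasal and basal effects on Ccl20 was −0.82 ± 0.12 (adjusted p = 0.0031, under the fold minimum). Within the suprabasal group, a cluster led by Flg2 and Cdsn, genes of the cornifying layers, had 239.3 and 253 CPM of Ccl20 in the mutant, against 644 and 644 CPM in the control. That cluster was chosen after its values were seen, so its log2 change of −1.35 ± 0.08 is a description with no test. After thinning to 2000 UMIs, 25.8% and 24.1% of mutant suprabasal cells had a Ccl20 UMI, against 32.6% and 31.1% of control ones. In basal cells these shares were 37.6% and 33.8% in the mutant, against 33.8% and 32.7% in the control. In lymphoid cells they were 7.74% and 6.67% in the mutant, against 8.98% and 8.86% in the control, and the source of these UMIs was not tested. Median depths were 20152 to 21745 UMIs in suprabasal cells and 4266 to 4828 UMIs in lymphoid cells before thinning.

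Blood endothelial cells were the 1 group in which Ccl20 fell, as the 1 called of 2 members where 0.221% of all genes were called. It had 14 and 13 UMIs in the mutant, against 154 and 66 UMIs in the control (−3.29 ± 0.45, adjusted p = 0.011). The call was lost without control 1 (−2.43) and under the gate (−1.22). At a clustering resolution of 0.6 the group held more mutant cells, 105 and 114, and the sign was opposite, at 1.37. In the blood endothelial cells of the main clusters, basal keratinocyte markers summed to 781 and 742 CPM in the mutant, against 1666 and 1620.2 CPM in the control. Their part was not tested. Ccl2 in the same cells was at 41.6 and 637 CPM in the mutant, against 63.9 and 39.9 CPM in the control, so that 1 mutant library stood far above the other 3 (2.77 ± 0.86, adjusted p = 0.40).

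Within fibroblasts, Ccl2, Ccl7, Ccl8 and Ccl11 were higher in the mutant in 1 cluster and lower in another. These clusters were chosen after their values were seen, so their log2 changes are given as descriptions, with no test; the chemokines were left out of the genes used to cluster. In the cluster led by Gpx3, Cpz and C3 (257 and 275 mutant cells, 142 and 137 control cells), Ccl8 was at 273 and 284 CPM in the mutant, against 94.9 and 93.9 CPM in the control (log2 change 1.6004 ± 0.09 SE). Ccl11 was at 288 and 294 CPM in the mutant, against 144 and 149 CPM in the control (1.03 ± 0.09). Ccl2 was at 4625 and 3258 CPM in the mutant, against 2445 and 1944 CPM in the control, higher in both mutant libraries (0.88 ± 0.13). Ccl7 was at 1936 and 1506 CPM in the mutant, against 1254 and 986 CPM in the control (0.66 ± 0.11). Ccl5 was at 39.2 and 64.2 CPM in the mutant, against 15.04 and 10.1 CPM in the control (2.07 ± 0.27). T cell markers summed to 469 and 492 CPM in the mutant, against 742 and 665 CPM in the control, and their part in Ccl5 was not tested.

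In the cluster led by Cxcl5, Sfrp5 and Krt19 (216 and 230 mutant cells, 109 and 102 control cells), these 4 were lower in the mutant. Ccl2 was at 10436 and 7077 CPM in the mutant, against 16089.9 and 16363 CPM in the control, the highest of any group or cluster described here (−1.06 ± 0.15). Ccl11 was at 763 and 468 CPM in the mutant, against 1318 and 1145 CPM in the control (−1.17 ± 0.19). Ccl8 was at 17.6 and 25.3 CPM in the mutant, against 118 and 55.8 CPM in the control (−2.19 ± 0.32). Ccl7 was at 1403 and 993 CPM in the mutant, against 1471 and 2009 CPM in the control (−0.70 ± 0.17). Ccl5 was instead higher here too, with 34 and 61 UMIs in the mutant, against 0 in both control libraries, at least 10.8-fold higher over the group with 3 counts as the floor. Fibroblast markers in this cluster were low for a fibroblast cluster, at 16920 and 17819 CPM in the mutant, against 28989 and 24718 CPM in the control; their part was not tested.

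Without the fibroblast cluster that mutant cells almost alone filled (275 and 247 mutant cells, against 2 and 0 control cells), Ccl8 in fibroblasts as a whole was called, at 1.10, whereas with it Ccl8 was at 70.3 and 69.95 CPM in the mutant, against 47.3 and 37.1 CPM in the control (0.76 ± 0.09, adjusted p = 3.7e-04).

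**Figure D5:**
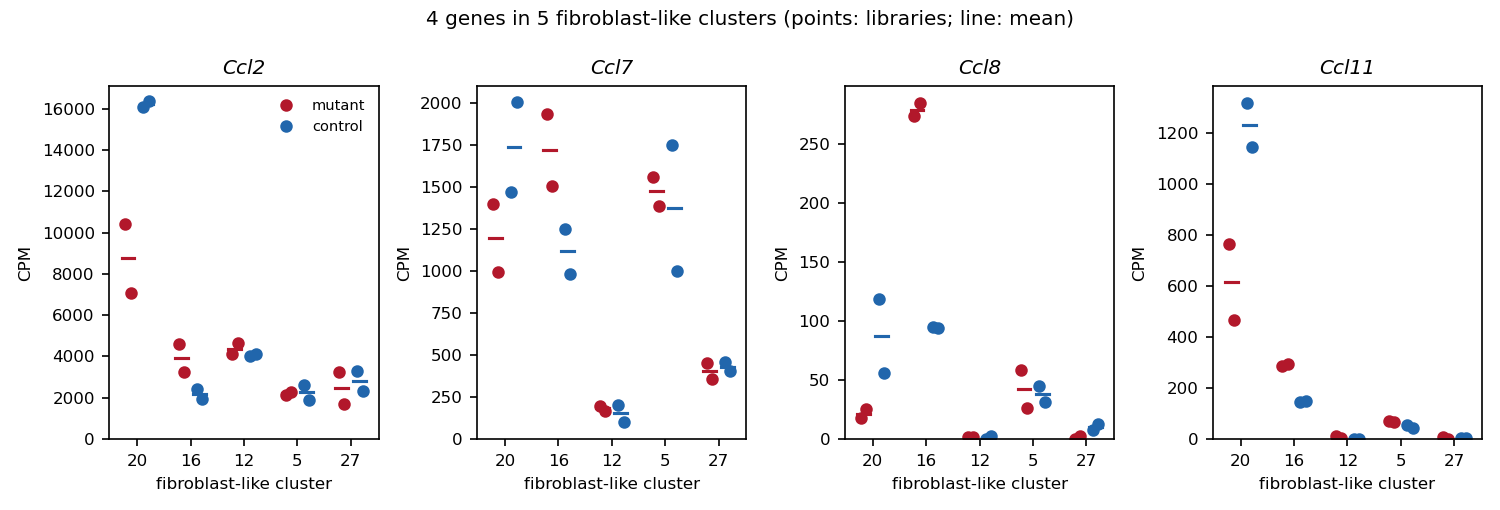
CPM per library on a linear axis of Ccl2, Ccl7, Ccl8 and Ccl11 in 5 fibroblast clusters, given by number; points are libraries, lines are means, and mutant points stand left of control points. Cluster 16, led by Gpx3, has mutant points above control points and cluster 20, led by Cxcl5, has them below, while the points of the other clusters lie closer together.

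Within single fibroblasts the chemokines were often counted together. Among cells thinned to 2000 UMIs, 77.2% and 72.3% of mutant fibroblasts with a Ccl7 UMI also had a Ccl2 UMI, against 75.1% and 73.7% of control ones. Over all mutant fibroblasts, 61.7% and 56.7% had a Ccl2 UMI, against 58.6% and 54.2% in the control. Of pericytes or smooth muscle cells with a Ccl11 UMI, 92.3% and 93.8% in the mutant also had Ccl2, against 89.7% and 85.2% in the control. Cells with 2 chemokines share their depth, and no test was made of these shares.

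Schwann cells, the glia of skin nerves, had Ccl11 at 48.5 and 37.4 CPM in the mutant, against 17.5 and 18.5 CPM in the control (1.26 ± 0.20, adjusted p = 0.032). That was the 1 member called of 5, where 0.176% of all genes were called, and the call was lost by DESeq2, at resolution 1.4 and with doublets kept (0.97). In dermal sheath cells, the contractile layer around the follicle, Ccl8 had 14 and 17 UMIs in the mutant, against 0 in both control libraries, at least 7.70-fold higher over the group. It was the 1 called of 4 members where 0.66% of all genes were called, and the call was lost by DESeq2 and without mutant 1. Sheath Ccl2 was at 803 and 598 CPM in the mutant, against 599 and 409 CPM in the control (0.46 ± 0.11, adjusted p = 0.010, under the minimum), and mutant 2 lay just below control 1.

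Ccl5 was counted chiefly in lymphoid cells, at 1236 and 1163 CPM in the mutant, against 762 and 684 CPM in the control. The libraries did not overlap, and the log2 change was 0.66 ± 0.04 (adjusted p = 9.6e-14), under the fold minimum. After thinning, 28.5% and 28.9% of mutant lymphoid cells had a Ccl5 UMI, against 16.6% and 15.5% of control ones. In basal keratinocytes, a group with a mean of 5.07 CPM, these shares were 1.12% and 0.56% in the mutant, against 0.25% and 0.38% in the control. Most of it lay in 2 clusters, which were chosen after their values were seen, so that log2 changes in them are descriptions with no test. The cluster led by Cd8a and Cd28, a coreceptor and a costimulator of T cells, held 549 and 547 mutant cells, against 318 and 304 control cells, so that it was more frequent in the mutant. Inside it Ccl5 was lower in the mutant, at 1557 and 1634 CPM, against 2303 and 1807 CPM in the control (−0.43 ± 0.07). Ccl4 there was also lower, at 92.2 and 85.6 CPM in the mutant, against 127 and 122 CPM in the control (−0.55 ± 0.11).

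The cluster led by Gzmc and Gzma, granzymes of cytotoxic cells, held 103 and 96 mutant cells, against 63 and 130 control cells. There Ccl5 was higher in the mutant, at 6125 and 5783 CPM, against 4649 and 3154 CPM in the control (0.55 ± 0.11). Of thinned lymphoid cells with a Ccl4 UMI, 85.4% and 84.9% in the mutant also had Ccl5, against 83.3% and 80.5% in the control.

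Ccl3 and Ccl4, whose levels were highest in myeloid cells, had few UMIs. In Langerhans or dendritic cells, Ccl3 had 42 and 38 UMIs (92.3 and 84.1 CPM) in the mutant, against 138 and 139 UMIs (286 and 257 CPM) in the control, with a wide gap between the groups. It fell by 1.64 log2 units (SE 0.21, adjusted p = 0.045), the call was kept in all 11 alternatives that gave a value, and it was the 1 gene called of 4452 tested, hence 1 of 4 members and 0.0225% of all genes. Ccl4 was at 17.6 and 59.8 CPM in the mutant, against 139 and 149.5 CPM in the control (−1.92 ± 0.40, adjusted p = 0.27). Ccl5 in these cells had 1 and 28 UMIs in the mutant, against 0 in both control libraries, too few to pass the filter. In the unnamed cluster with Langerhans and keratinocyte markers, Ccl3 was at 37.7 and 26.3 CPM in the mutant, against 53.2 and 67.8 CPM in the control, so lower in both mutant libraries there too (log2 change −0.96 ± 0.14, a description with no test).

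Macrophages or monocytes were few, 33 and 46 cells in the mutant, against 30 and 31 in the control, and their libraries spread widely. Ccl8 had 1 and 571 UMIs in the mutant, against 66 and 2 UMIs in the control, so that 1 library of each genotype held nearly all of it. Ccl2 was at 769 and 183.5 CPM in the mutant, against 143 and 76.8 CPM in the control, and Ccl4 at 303 and 242 CPM in the mutant, against 47.8 and 128 CPM in the control, each higher in both mutant libraries. Ccl3 was lower, at 154 and 151 CPM in the mutant, against 277 and 460.5 CPM in the control. None of 5 members was called by edgeR or DESeq2, 3 had an unadjusted p under 0.05, and 0% of all genes were called. In melanocytes none of 2 members was called by either tool, 1 had an unadjusted p under 0.05, and 0% of all genes were called. In mast cells none of 2 was called by either tool, 1 had an unadjusted p under 0.05, and 2.13% of all genes were called. Mast cell Ccl2 was at 811 and 647 CPM in the mutant, against 792 and 733 CPM in the control, overlapping, and Ccl7 at 1491 and 513 CPM in the mutant, against 602 and 367 CPM in the control.

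Summed over all kept cells, 3 of 8 members rose, where 4.33% of all genes were called. Ccl2 was at 796 and 694 CPM in the mutant, against 364 and 329 CPM in the control (1.011 ± 0.06, adjusted p = 5.1e-07). Within fibroblasts its level overlapped between genotypes, while these cells, which held most of its UMIs, were more frequent in the mutant. Ccl7 was at 175 and 152 CPM in the mutant, against 88.5 and 62.2 CPM in the control (1.02 ± 0.12, adjusted p = 7.9e-05). Both were under the fold minimum without control 2 (0.94 and 0.78) or mutant 1 (0.91 and 0.92). Ccl8 was at 11.1 and 15.5 CPM in the mutant, against 3.77 and 2.65 CPM in the control (1.96 ± 0.17, adjusted p = 7e-06), and all 10 alternatives kept the call. Ccl11 (0.96 ± 0.10), Ccl5 (0.85 ± 0.03), Ccl3 (−0.96 ± 0.10) and Ccl20 (−0.54 ± 0.08) had adjusted p-values of at most 3.1e-04 but stayed under the minimum. Ccl4 was at 7.15 and 5.77 CPM in the mutant, against 5.76 and 5.35 CPM in the control, and the difference did not pass (0.13 ± 0.09, adjusted p = 0.29). Composition and level per cell cannot be told apart in these sums.

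Other genes of the chemokine system were counted over the 15 cell groups from lists; the share over all genes is the 1.79% given above. Of 44 gene and group pairs of other CC ligands, 1 rose and none fell: Ccl21a, a Ccr7 ligand of lymphatic vessels, in dermal sheath cells (123 and 229 CPM in the mutant, against 6.34 and 5.90 CPM in the control). Of 52 pairs of CC receptors, 5 rose and none fell. Among them Ccr10, which binds Ccl27 and Ccl28, was at 25.8 and 25.9 CPM in mutant lymphoid cells, against 9.22 and 8.47 CPM in control ones (1.47 ± 0.15). Over all kept cells, Ccr2, the receptor of Ccl2 and Ccl7, was at 14.4 and 14.0 CPM in the mutant, against 5.98 and 6.71 CPM in the control (1.07 ± 0.06). Ccr8, the receptor of mouse Ccl8, was at 1.65 and 1.61 CPM in the mutant, against 0.709 and 0.791 CPM in the control (1.03 ± 0.12).

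Of 104 pairs from a list of 15 cytokines, 11 rose and none fell. In papilla cells Il6 was at 41.3 and 41.7 CPM in the mutant, against 9.92 and 17.5 CPM in the control. Lif there was at 21.3 and 21.02 CPM in the mutant, against 5.44 and 7.23 CPM in the control. Their part in the rises of Ccl2 and Ccl7 was not tested. Lymphatic cells had Tslp at 1417 and 497 CPM in the mutant, against 229 and 234 CPM in the control (2.097 ± 0.30). DESeq2 did not make that call. Of 120 pairs of CXC, XC and CX3C ligands, 13 rose and 2 fell, with Cxcl12 in fibroblasts at 266 and 247 CPM in the mutant, against 80.1 and 104 CPM in the control (1.51 ± 0.09). Of 200 pairs of NF-kB response genes, none was called by edgeR or DESeq2, and 69 had an unadjusted p under 0.05.

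Of 253 pairs of immediate early and heat shock genes, which report handling stress among other things, 1 rose and 8 fell. Hspa1a, a heat shock gene, was at 2739 and 2745 CPM in mutant papilla cells, against 8040.4 and 8284 CPM in control ones. In lymphoid cells it was at 752 and 677 CPM in the mutant, against 1678 and 1580.3 CPM in the control. Levels of stress genes thus moved with genotype in the papilla and lymphoid groups in which Ccl2 rose, and their part in that was not tested. In lymphatic cells none of the 17 genes was called by edgeR or DESeq2, and 13 had an unadjusted p under 0.05.

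For each chemokine, the 3 genes with the most similar level over the 15 cell groups were listed by Pearson correlation of log2(CPM + 1) among 11663 genes, as a description. The 15 points share libraries, and r carries no test. Ccl2 was closest to Kiz (r = 0.901), Itih5 (0.889) and Ccl7 (0.869). Ccl7 was closest to Ccl2, CR974586.5 and Hgf, and Ccl11 to Cxcl5 (0.920), Vtn (0.900) and Ebf2 (0.900). Ccl8 followed F13a1 (0.937), Rag1 and Naaa, genes led by macrophages. Ccl3 lay nearest to Pik3ap1 (0.984), AF251705 and Spi1, the last a myeloid transcription factor gene, and Ccl4 to Gpr132 (0.983), Stap1 and Glipr1. Ccl5 lay nearest to Gm26740 (0.956), Jakmip1 and Cd226, an activating receptor of NK and T cells, and Ccl20 to Kdf1 (0.946), a keratinocyte differentiation gene, Clca3a2 and Eif6.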

How the data were processed

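Dorsal skin cells were profiled by 10x 3′ single-cell RNA sequencing (chemistry version 3, and version 2 for the sorted library, per the labels' protocols). The deposited values are raw UMI counts per gene and barcode, made by the authors with Cell Ranger, version 3.1.0 for the unsorted matrices per the file headers; the submitters' processing notes also name Cell Ranger 2.1.1, Seurat 3.2.2, Scanpy 1.6.0 and the GRCm38 build. The members and gene lists were chosen with earlier results of these data known.

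Cells with 500 to 8000 genes and at most 10% mitochondrial UMIs were kept, and those with a doublet score above 0.25 were removed (161 and 145 mutant cells, 176 and 159 control cells). That threshold was set after the scores were seen, because the automatic one failed in a control library. Clusters were made with scanpy 1.11.5 and leidenalg 0.10.2 (1958 variable genes without chemokines and their receptors, 40 components, 15 neighbours, resolution 1). Names needed at least 3 markers of a list, each enriched by a log2 fold of 1 or more and found in a fraction of at least 0.1 of the cluster. Cell by cell gates on the same markers were the alternative. Of the cells of a named group, the share in its own gate was 27.0% for dermal sheath, 36.9% for papilla, 37.9% for macrophages and 45.7% for pericytes or smooth muscle. It was 84.5% for fibroblasts and 100% for mast cells. The macrophage gate had under 20 cells in some libraries and was not compared.

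UMI counts were summed per library and cell group and tested with edgeR 4.0.16 (glmQLFit and glmQLFTest, TMM scaling, filterByExpr), with Benjamini-Hochberg adjustment over all genes of a comparison. SE is the log2 fold change divided by the root of F. The interactions of lymphatic cells with fibroblasts and of suprabasal with basal keratinocytes, and fits without clusters held by 1 genotype, were added after the data were seen. Interactions took the sums of a library in both groups as separate samples. TMM moved the median of all genes by at most 0.0931 log2 units. The scripts were tested on simulated data. Genes named are the members, the 3 closest to each, and up to 4 called genes per list and group. Ccl2 overlaps Gm17268 on the opposite strand, and counts of the pair cannot be told apart unless counting used strand, which is not given in the sources used here. Intervals and floors cover counting error only. DESeq2 1.42.0, no scaling, no filter, the replicate block, resolutions 0.6 and 1.4, doublets kept, 20% mitochondrial UMIs and each library left out were the alternatives.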

Additional observations from a re-analysis of the deposited data

Results flagged for a closer look

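The genotype effect on a chemokine differed between cell groups, by the test of the difference itself, in 6 cases. Between papilla cells and fibroblasts it differed by 1.10 log2 units for Ccl2, by 1.81 for Ccl7 and by −1.80 for Ccl5. Between lymphatic endothelial cells and fibroblasts it differed by 1.75 for Ccl2 and by 1.47 for Ccl7. Between suprabasal and basal keratinocytes the difference for Ccl20 was −0.82, which passed the adjusted p but not the fold minimum. The tests on lymphatic cells and keratinocytes were chosen after the data were seen.

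The library of GFP-positive sorted cells from Lepr-Cre;mTmG mice at postnatal day 50 was used in no comparison. It held 455 barcodes and 1138206 UMIs, from a single library of an older chemistry, so its values have no replicate check. Ccl11 was at 116.9 CPM in it (133 UMIs, exact 95% Poisson interval 97.8 to 138.5 CPM, counting error only), Ccl2 at 79.1 CPM, Ccl7 at 38.7 CPM, Ccl8 at 10.5 CPM and Ccl5 at 7.91 CPM. Ccl4 had 2 UMIs, and Ccl3 and Ccl20 had none, so that each is under the floor of 3 counts, 2.64 CPM. The upper end of the exact interval was 6.35 CPM for Ccl4 and 3.24 CPM for Ccl3 and for Ccl20. Ccl11 UMIs were in 45 of its 455 barcodes and Ccl2 UMIs in 26.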

How the results depend on the processing

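Of the 71 member and group pairs, 18 were called by edgeR, 10 by DESeq2 and 18 to 24 with a library left out. Over all kept cells 3 members were called, and 1 to 5 with a library left out (1 without control 2, 5 without control 1). Interaction calls with a library left out numbered 2 to 3 for papilla against fibroblasts (1 under the marker gate), 1 to 2 for lymphatic cells against fibroblasts (1 with doublets kept) and 0 to 1 for suprabasal against basal keratinocytes (1 with doublets kept). The fall of Ccl20 in blood endothelial cells turned to 1.37 at resolution 0.6. That group held 105 and 114 mutant cells and 51 and 52 control cells. In the main clusters it held 54 and 71 mutant cells and 50 and 50 control cells. Its keratinocyte markers were at 8470 CPM at resolution 0.6, against 1160 CPM in the main clusters. Genes called there numbered 1746, against 13. The part of the added cells in the change of sign was not tested. Of 310 alternative values of 26 called changes, 253 kept direction and call, 56 lost the call and 1 changed sign. With doublets kept, basal keratinocytes held 17.3% of Ccl20 UMIs in the mutant and 14.7% in the control, and a cluster of 1242 cells led by Csf2 and Tslp stayed unnamed. With the replicate number as a block, 23 pairs were called; same-numbered libraries correlated at −0.08 to 0.07, so the number does not pair them. The macrophage, mast, melanocyte, Langerhans and blood endothelial groups held 22 to 71 cells a library, which limits their values.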
